A study of Homo sapiens with 4 samples.

Results

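The alpha subunits of the Gi/o class were examined in HEK293 cells, a human embryonic kidney line transformed with adenovirus DNA in common use as a host for transfected receptors. The class was taken as 8 genes, GNAI1, GNAI2, GNAI3, GNAO1, GNAZ, GNAT1, GNAT2 and GNAT3, and its members were the probes whose RefSeq accession mapped to one of them. Of the 8 genes, 7 were found among the 17217 named genes on the array, through 9 targets and 27 probes, and GNAT3 was not matched and so was not measured here. The labels give 1 group of 4 biological replicates, cells at rest with no treatment, and the study's methods give each replicate a plate and an RNA extraction of its own. Double-stranded cDNA was made with oligo(dT) from total RNA, and DNA labeled from it with random Cy3 primers was hybridized in a single color to a NimbleGen array with 3 probes for each target. There was no second condition, so each gene was set against the level of genes not thought to be expressed.

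Heterotrimeric G proteins carry the signal of a G protein-coupled receptor (GPCR) into the cell when the alpha subunit exchanges GDP for GTP and parts from the beta and gamma subunits. Alpha subunits of the Gi type inhibit adenylyl cyclase, and the beta and gamma subunits they release open inwardly rectifying potassium channels and act on other effectors. Pertussis toxin blocks most of the class by modifying a cysteine near the carboxyl end, which GNAZ lacks. GNAO1 is best known from neurons, GNAT1 from rod and GNAT2 from cone photoreceptors, and GNAT3, the gustducin subunit, from taste cells.

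The baseline of an array was the mean plus 2 SD of 10 genes of seminal proteins that the study held to be improbable in this line, and the distance of a gene was its log2 level minus the baseline of the same array. A gene was counted as detected where its mean distance over the 4 arrays was above 0. The baselines of replicates 1 to 4 were 9.47, 9.94, 10.69 and 10.32 log2 units. They averaged 10.10, and 7.78 without the controls SPATA5 (now AFG2A) and SPATA13, whose mean levels were 9.97 and 9.72. Each baseline lay above the median probe value of its array, 9.39 to 9.40, so a gene below it need not be unexpressed. The arrays fell into pairs, since the sorted probe values of replicates 1 and 2 were nearly the same, as were those of replicates 3 and 4, and the baseline averaged 9.70 in the first pair and 10.51 in the second. Within the class 3 of 7 genes were detected (42.9%), against 52.7% of all named genes. The same genes lay above the baseline on all 4 arrays, where the background was 45.0%, and the same genes passed a one-sided limma test of the distance at an adjusted p of 0.05, where it was 45.9%. They were GNAI2, GNAZ and GNAI3. The limma test used the same standard error, 0.351, for every gene, so its p-values do not measure the SD given beside them. Nor do they carry the uncertainty from the choice of controls. The median distance was -0.02 log2 units over the 7 members and 0.26 over all named genes. A culture's RNA does not tell fewer cells with a message from less message in each cell. Probes also differ in how well they bind, so a larger distance of one gene than of another is a difference in signal and not in the number of transcripts.

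**Figure D1:**
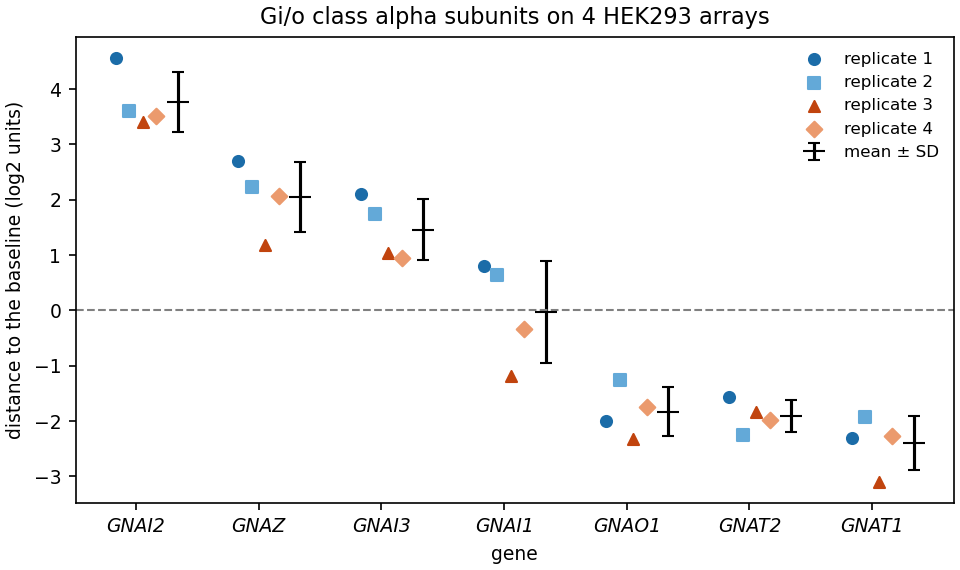
Distance to the baseline in log2 units (y axis) for the 7 measured genes (x axis) on each of 4 HEK293 arrays, with the mean and SD over the arrays in black and the baseline as a dashed line at 0. GNAI2, GNAZ and GNAI3 lie above the line on 4 of 4 arrays, GNAI1 on 2 and the other genes on none.

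GNAI2, a Gi subunit found in most tissues, had the highest signal of the class. Its level was 14.03, 13.53, 14.09 and 13.84 log2 units on replicates 1 to 4, a mean of 13.87 ± 0.25 (SD, n = 4). All 4 arrays were high, and the smallest distance above a baseline was 3.40 log2 units, on replicate 3. Replicate 1 gave a distance of 4.56 and the other arrays gave 3.40 to 3.60, with a mean of 3.77 ± 0.54 (SD, n = 4, limma adjusted p = 4.56e-26). All 12 probe values of GNAI2, from 3 probes on 4 arrays, were above the baseline. No olfactory receptor gene, of 364 used as other controls, had a higher mean level.

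GNAZ encodes the Gz subunit, the pertussis toxin-resistant member of the class, and is known mainly from brain and platelets. Its level was 12.17, 12.17, 11.87 and 12.39 log2 units on replicates 1 to 4, a mean of 12.15 ± 0.21 (SD, n = 4). The arrays lay close together in level. The distance was 2.70, 2.24, 1.18 and 2.06 on replicates 1 to 4, lowest on replicate 3, and its mean was 2.05 ± 0.64 (SD, n = 4, limma adjusted p = 9.76e-09). All 12 probe values were above the baseline. The probes of GNAZ averaged 11.16 to 12.93 log2 units, so that even the weakest stood 1.06 above the mean baseline.

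GNAI3, the other Gi subunit that is expressed in most tissues, was detected with a smaller distance. Its level was 11.58, 11.68, 11.73 and 11.27 log2 units on replicates 1 to 4, a mean of 11.57 ± 0.21 (SD, n = 4), and the arrays again lay close together. The distance was 2.11, 1.74, 1.04 and 0.95 on replicates 1 to 4, and its mean was 1.46 ± 0.56 (SD, n = 4, limma adjusted p = 4.26e-05). Of its 12 probe values 10 were above the baseline. The exceptions came from 1 probe, with a mean level of 10.27, on replicates 3 and 4. With the baseline at 3 SD of the controls both GNAI3 and GNAZ missed the threshold, at distances of 0.14 (limma adjusted p = 0.944) and 0.73 (limma adjusted p = 0.0943).

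GNAI1, the third Gi subunit, fell on the baseline itself. Its level was 10.27 and 10.57 log2 units on replicates 1 and 2 and 9.51 and 9.98 on replicates 3 and 4. The mean level was 10.08 ± 0.45 (SD, n = 4), and the mean baseline was 10.10 ± 0.52 (SD, n = 4). The distance was 0.80 and 0.63 on replicates 1 and 2 and -1.18 and -0.34 on replicates 3 and 4, so that the gene was above the baseline on both arrays of one pair and below it on both of the other. The mean distance of -0.02 ± 0.92 (SD, n = 4, limma adjusted p = 0.993) was within the spread between arrays. Its level was 10.42 in the first pair and 9.75 in the second, a fall that went with a rise of the baseline. Quantile normalization of the 4 arrays together left distances of 0.77, 0.60, -1.24 and -0.37 on replicates 1 to 4. Of the 12 probe values of GNAI1, 5 were above the baseline, and its probes averaged 9.39, 10.56 and 10.01 log2 units. Of the 364 olfactory receptor genes 1 had a higher mean level. With olfactory receptor genes as controls the distance of GNAI1 was 2.06 (limma adjusted p = 1.15e-07), and without SPATA5 (now AFG2A) and SPATA13, the controls with the highest levels, it was 2.30 (limma adjusted p = 4.65e-10). Under each of these controls GNAI1 lay above the baseline on each of the 4 arrays.

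GNAO1, the Go subunit, lay below the baseline on every array. Its level was 7.47, 8.67, 8.37 and 8.58 log2 units on replicates 1 to 4, with a distance of -1.83 ± 0.45 (SD, n = 4). This mean hid a difference between its 2 targets. The target NM_020988 had levels of 8.33, 10.46, 7.95 and 9.48 on replicates 1 to 4, higher on replicates 2 and 4 than on 1 and 3. It stood 0.52 above the baseline on replicate 2 and below it on the others, -1.05 ± 1.34 in the mean (SD, n = 4). The target NM_138736 had levels of 6.61, 6.89, 8.79 and 7.69, highest on replicates 3 and 4, and a distance of -2.61 ± 0.50 (SD, n = 4). The high value of NM_020988 on replicate 2 came from 2 of its 3 probes, at 11.42 and 10.12 log2 units, while the third read 8.55. Of the 24 probe values of GNAO1, these 2 were the only ones above the baseline. An SD of 1.14 for the level of NM_020988 exceeded the 0.42 of the median gene, so the arrays did not settle its level.

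The transducin subunits also lay below the baseline on 4 of 4 arrays. GNAT2, the cone subunit, had levels of 7.91, 7.69, 8.86 and 8.34 log2 units on replicates 1 to 4 and a distance of -1.90 ± 0.29 (SD, n = 4). GNAT1, the rod subunit, had levels of 7.16, 8.0, 7.59 and 8.05 and a distance of -2.40 ± 0.49 (SD, n = 4). Their probe values were below the baseline without exception, 0 of 12 for GNAT2 and 0 of 24 for GNAT1. The 2 targets of GNAT1 stood at -2.69 ± 0.50 for NM_000172 and -2.11 ± 0.61 for NM_144499 (SD, n = 4 for each). One probe of NM_144499 was brighter than the other 5 of GNAT1 on each of the 4 arrays, at 8.78 to 9.70 log2 units. Of the 364 olfactory receptor genes, 18 had a higher mean level than GNAT1, 7 than GNAT2 and 6 than GNAO1. Without SPATA5 and SPATA13 as controls GNAO1 stood at 0.50 (limma adjusted p = 0.0546) and GNAT2 at 0.42 (limma adjusted p = 0.0884), each on the other side of the baseline.

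**Figure D2:**
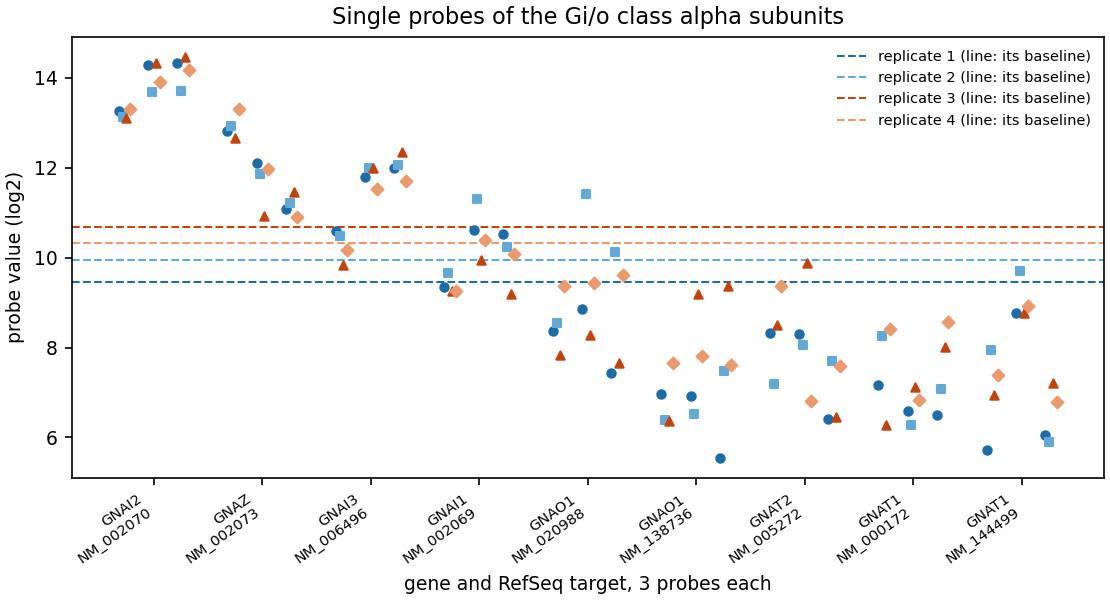
Log2 value of each of the 27 probes (y axis), grouped by gene and RefSeq target (x axis), with a symbol for each of the 4 arrays and a dashed line at the baseline of each array in the same color. All 12 values of GNAI2 and of GNAZ lie above the line of their array, the values of GNAI1 straddle the lines, and 2 of 24 values of GNAO1 pass them, both on replicate 2.

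In order of distance the class ran GNAI2, GNAZ, GNAI3, GNAI1, GNAO1, GNAT2, GNAT1. The distances of GNAI2 did not overlap with those of GNAZ. Those of GNAZ and GNAI3 did overlap across arrays, from 1.18 to 2.70 against 0.95 to 2.11, and so did those of GNAO1, GNAT2 and GNAT1. Genes on an array share its baseline, and on each array GNAZ had a larger distance than GNAI3. The levels of GNAZ, 11.87 to 12.39 log2 units, did not overlap with those of GNAI3, 11.27 to 11.73. GNAI1, from -1.18 to 0.80, overlapped with neither GNAI3 nor GNAO1. The GNAO1 target NM_020988 taken alone, from -2.74 to 0.52, did overlap with GNAI1. The SD of the level was 0.21 to 0.25 log2 units for the 3 detected genes and 0.41 to 0.55 for the other 4. In replicates 1 and 2 alone the distances were 4.08 for GNAI2, 2.47 for GNAZ and 1.93 for GNAI3, and in replicates 3 and 4 alone 3.46, 1.62 and 1.00. The order of these 3 was the same in both pairs. Their levels differed less between the pairs than their distances did, at 13.78 and 13.96 for GNAI2, 12.17 and 12.13 for GNAZ and 11.63 and 11.50 for GNAI3.

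**Figure D3:**
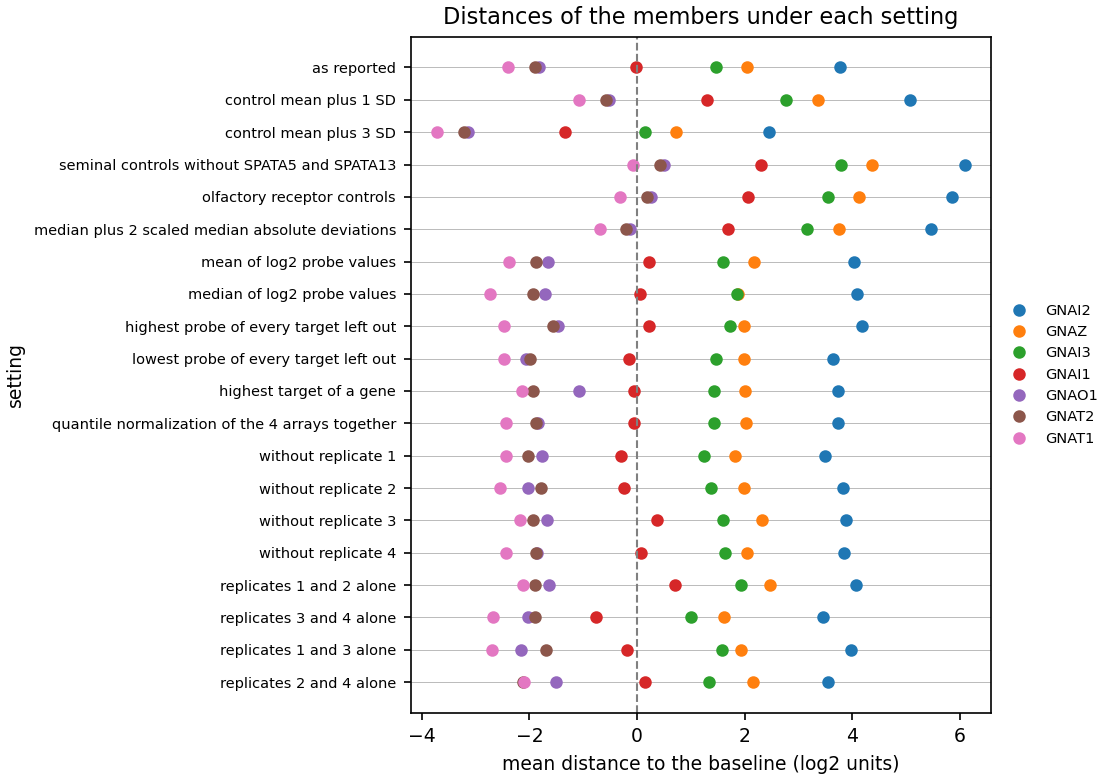
Mean distance to the baseline in log2 units (x axis) of the 7 genes as reported and under each other setting of controls, probe summary, normalization and arrays (y axis), with the baseline as a dashed line at 0. GNAI2, GNAZ and GNAI3 stay above 0 in each row, GNAI1 crosses it, and GNAO1 and GNAT2 cross it only with olfactory receptor controls or without SPATA5 and SPATA13.

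In the gene order of the GRCh38.p14 assembly, members of the Gi and transducin types lie next to or near each other. GNAI3 is followed by GNAT2 on chromosome 1, GNAI1 by GNAT3 on chromosome 7, and SLC38A3 is the only protein-coding gene between GNAT1 and GNAI2 on chromosome 3. The promoter windows of the measured Gi and transducin neighbors are shown because 1 gene of each set, GNAI3 or GNAI2, passed the baseline on each of 4 arrays and the other on none. Each window is from RefSeq (GRCh38.p14), holds 250 bases before to 50 after a transcription start, and is written along the gene's strand with each CG dinucleotide in capitals.
GNAI3 (chr1:109548365-109548664, + strand): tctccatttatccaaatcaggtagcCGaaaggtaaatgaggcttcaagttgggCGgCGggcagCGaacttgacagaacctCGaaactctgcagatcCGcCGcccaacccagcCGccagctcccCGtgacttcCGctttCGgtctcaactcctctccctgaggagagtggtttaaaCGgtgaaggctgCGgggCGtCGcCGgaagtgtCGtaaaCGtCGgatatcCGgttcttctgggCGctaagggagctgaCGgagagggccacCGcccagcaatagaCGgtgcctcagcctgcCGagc
GNAT2, upstream start (chr1:109619567-109619866, - strand): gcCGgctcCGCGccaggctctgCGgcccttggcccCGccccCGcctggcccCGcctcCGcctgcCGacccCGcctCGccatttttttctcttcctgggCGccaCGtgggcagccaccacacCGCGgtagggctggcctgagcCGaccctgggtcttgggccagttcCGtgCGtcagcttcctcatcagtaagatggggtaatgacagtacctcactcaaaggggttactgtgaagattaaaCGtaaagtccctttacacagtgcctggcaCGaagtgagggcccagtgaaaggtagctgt
GNAT2, downstream start (chr1:109613035-109613334, - strand): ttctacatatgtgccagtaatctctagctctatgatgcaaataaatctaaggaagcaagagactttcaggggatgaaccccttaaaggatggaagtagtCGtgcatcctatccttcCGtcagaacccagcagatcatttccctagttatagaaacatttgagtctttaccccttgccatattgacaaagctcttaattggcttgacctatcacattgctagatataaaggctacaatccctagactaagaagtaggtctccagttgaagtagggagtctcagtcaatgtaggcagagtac
GNAI2 (chr3:50235954-50236253, + strand): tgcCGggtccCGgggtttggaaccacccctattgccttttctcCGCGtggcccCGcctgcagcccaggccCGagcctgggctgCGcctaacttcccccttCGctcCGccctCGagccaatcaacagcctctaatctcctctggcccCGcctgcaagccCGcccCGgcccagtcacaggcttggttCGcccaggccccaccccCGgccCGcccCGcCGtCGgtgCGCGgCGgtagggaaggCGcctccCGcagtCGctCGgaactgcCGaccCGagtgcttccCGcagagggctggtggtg
GNAT1 (chr3:50191360-50191659, + strand): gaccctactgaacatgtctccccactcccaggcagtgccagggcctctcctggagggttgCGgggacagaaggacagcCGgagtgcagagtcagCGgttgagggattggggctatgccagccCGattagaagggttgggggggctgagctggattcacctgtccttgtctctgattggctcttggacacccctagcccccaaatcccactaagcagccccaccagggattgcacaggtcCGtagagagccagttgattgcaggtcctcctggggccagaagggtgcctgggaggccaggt

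The GNAI3 window held 25 CG dinucleotides and that of GNAI2 29, against a median of 14 over the 35116 windows of all genes. GNAT1 held 5, and GNAT2 held 20 at its upstream and 2 at its downstream start. Of all windows 68.0% held fewer CG than GNAI3, 75.8% fewer than GNAI2 and 29.6% fewer than GNAT1. GNAI2 has 2 further starts in the table, with 4 and 7. GNAI1 reached 42 and GNAO1 48 in their richest window, and GNAT3 had 2. The letters TATAAA, on either strand, were in the downstream window of GNAT2 and in that of GNAT3 and in no other window of the members, and 11.5% of all windows held them. Windows were matched for 7 of the 8 genes, not for GNAZ. Over all genes with a window, 67.2% of the 10900 with 10 or more CG in any window were detected and 9.15% of the 2907 with fewer, a division chosen after the values were seen.

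Other neighbors of the members, in the same gene order, were on either side of the baseline. AMPD2, an AMP deaminase beside GNAT2, stood at 3.01 ± 0.30 log2 units (SD, n = 4). RAB36, beside GNAZ, stood at 0.29 ± 0.27, positive on each array, and RSPH14, on the other side of GNAZ, at -2.04 ± 1.13 (SD, n = 4 for each). MAGI2, SLC38A3 and SEMA3B were at -0.35, -0.46 and -0.55, each above the baseline on 1 of 4 arrays. SEMA3F, CES5A, CD36 and GPR61 were at -1.94, -2.55, -3.03 and -3.14, below it on each array. Of the detected members, GNAZ had a neighbor on each side of the baseline, and both neighbors of GNAI2 and of GNAI3 were below it.

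The partners that the class works with were taken next, beginning with the other subunits. Of the alpha subunits of the Gs, Gq and G12 classes 6 of 8 were detected, all 6 on 4 of 4 arrays and by limma. The highest were GNAS, the Gs subunit that stimulates adenylyl cyclase, at 5.03 ± 0.73, the Gq class subunit GNA11 at 3.08 ± 0.60 and the olfactory Gs class subunit GNAL at 3.06 ± 0.87 log2 units (SD, n = 4 for each). The first place of GNAS depended on its brighter probes. GNAS stood below both GNA11 and GNAL where the probe median was taken or the highest probe was left out. It still passed the limma test in both settings. All 5 beta subunits were detected, 4 of them by limma, led by GNB1 at 4.14 ± 0.69, GNB2 at 3.67 ± 0.38 and GNB4 at 1.83 ± 0.76 (SD, n = 4 for each). Gamma subunits gave 6 of 12, a share near the 52.7% of all named genes. By limma 4 of them passed, a share below the 45.9% of all named genes. They were led by GNG10 at 3.06 ± 0.79, GNG12 at 2.96 ± 0.57 and GNG4 at 2.23 ± 0.64 (SD, n = 4 for each). The detected genes that did not pass were GNG13 at 0.37 (limma adjusted p = 0.295) and GNG2 at 0.05 (limma adjusted p = 0.856). GNG2 was named after its values were seen and lay above the baseline on 2 of 4 arrays. The share detected was 75.0% for the other alpha subunits, beside 52.7% of all named genes. With the baseline at 3 SD of the controls 3 beta subunits were detected, beside 39.1% of all named genes.

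Among effectors, adenylyl cyclases gave 5 of 10 detected, each of the 5 on 4 of 4 arrays and by limma, a share near the 52.7% of all named genes. ADCY6, an isoform that Gi inhibits, stood at 2.29 ± 0.73, ADCY9 at 2.04 ± 0.64 and ADCY7 at 1.66 ± 0.31 log2 units (SD, n = 4 for each). The G protein-gated potassium channels KCNJ3, KCNJ5, KCNJ6 and KCNJ9 gave 0 of 4, at -3.36 to -2.95 in the mean, beside a median of -3.42 for the olfactory receptor genes. With the baseline at 3 SD 3 adenylyl cyclases were detected, beside 39.1% of all named genes.

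Proteins that act on the alpha subunit itself gave different shares by type, beside 52.7% of all named genes. Exchange factors, dissociation inhibitors, chaperones and their binding partners gave 9 of 14 detected (64.3%), 8 of them by limma. NUMA1, which binds the Gi partner GPSM2 in the orientation of the mitotic spindle, stood at 3.77 ± 0.68, NUCB1 at 3.71 ± 0.60 and NUCB2 at 3.61 ± 0.84 log2 units (SD, n = 4 for each). These 3 have roles outside G protein signaling. Enzymes of the lipid tail, by which the subunits attach to membranes, gave 7 of 9 detected (77.8%), 6 of them by limma. They were led by METAP2 and METAP1, which remove the first methionine, at 5.04 ± 0.64 and 3.49 ± 0.78, and by the palmitoyl transferase ZDHHC3 at 3.22 ± 0.69 (SD, n = 4 for each). RGS proteins, which speed up GTP hydrolysis on Gi/o or Gz, gave 1 of 20 (5.00%). This was RGS10, at 1.31 ± 0.75 log2 units (SD, n = 4, limma adjusted p = 0.000256), with a level of 11.45, 11.77, 11.06 and 11.36 on replicates 1 to 4. Its call was lost where probes were averaged on the log2 scale, at 0.44 (limma adjusted p = 0.238), where their median was taken, at 0.39 (limma adjusted p = 0.268), and where the highest probe was left out, at 0.23 (limma adjusted p = 0.539). It was also lost on replicates 3 and 4 alone, at 0.70 (limma adjusted p = 0.0794), and on replicates 1 and 3 alone, at 1.18 (limma adjusted p = 0.0771). The count of RGS proteins was 12 without SPATA5 and SPATA13, beside 74.0% of all named genes, and 10 with olfactory receptor controls, beside 71.4%. It was 6 with the median and scaled median absolute deviation, beside 67.7%. With the baseline at 1 SD it was 5, beside 64.3%, and with it at 3 SD 0, beside 39.1%. By arrays it was 2 without replicate 3, 3 on replicates 1 and 2 and 2 on replicates 2 and 4. In these subsets 52.4% to 55.9% of all named genes were detected.

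Receptors that couple chiefly to Gi/o gave 4 of 86 detected (4.65%, beside 52.7% of all named genes), with a median distance of -2.84 log2 units. The count was 29 without SPATA5 and SPATA13, beside 74.0% of all named genes, and 22 with olfactory receptor controls, beside 71.4%. It was 17 with the median and scaled median absolute deviation, beside 67.7%. With the baseline at 1 SD it was 12, beside 64.3%, and with it at 3 SD 2, beside 39.1%. CXCR4, the receptor for the chemokine CXCL12, had levels of 13.39, 13.12, 13.09 and 12.90 on replicates 1 to 4 and a distance of 3.02 ± 0.69 (SD, n = 4). The GABA-B subunit GABBR1 had levels of 12.85, 13.08, 12.86 and 13.12 and a distance of 2.87 ± 0.53 (SD, n = 4). Both lay above the baseline on 4 of 4 arrays. The others, named after their values were seen, were above it on 3 arrays. The leukotriene B4 receptor LTB4R had a distance of 0.78 ± 0.79 (SD, n = 4, limma adjusted p = 0.0302). Its adjusted p was 0.0561 where limma's prior was robust and followed intensity. The sphingosine 1-phosphate receptor S1PR1 had a distance of 0.07 ± 0.64 (SD, n = 4, limma adjusted p = 0.815).

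**Figure D4:**
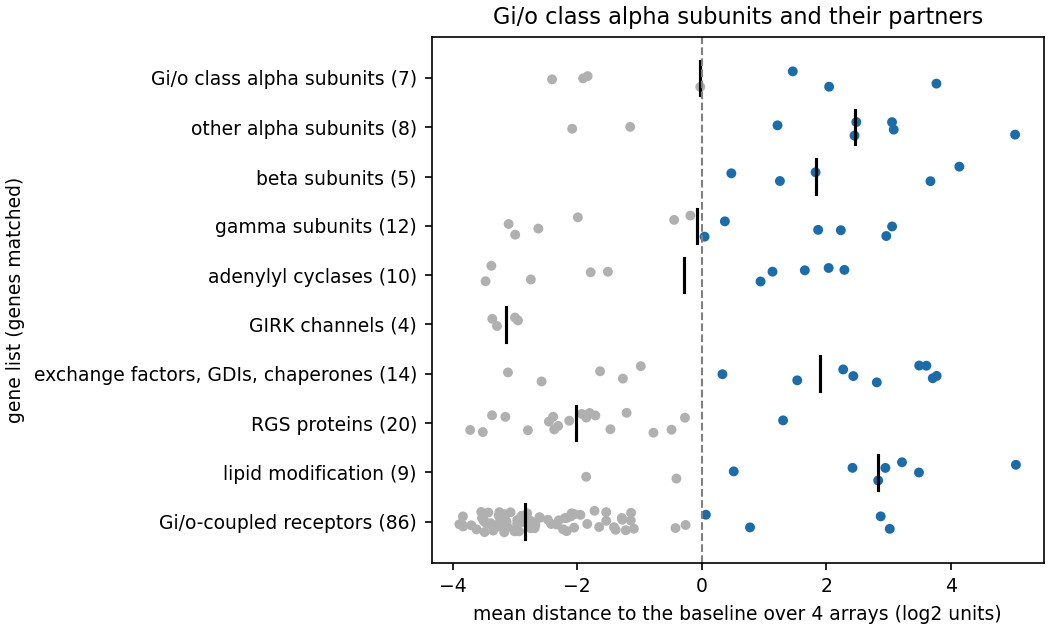
Mean distance to the baseline over 4 arrays in log2 units (x axis) for each matched gene of the Gi/o class and of 9 lists of partners (y axis, with the number of genes), blue above the baseline and grey below it, with a black bar at the median of each list. RGS proteins, GIRK channels (the G protein-gated potassium channels) and Gi/o-coupled receptors lie mostly below the dashed line at 0.

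The cells in which transducin and gustducin are known to work were looked for by their markers, beside 52.7% of all named genes detected. Rod markers gave 1 of 15 detected, GNB1, a beta subunit not confined to rods. The rod gamma subunit GNGT1 stood at -2.62 ± 0.30 log2 units (SD, n = 4). Cone markers gave 1 of 10, GNB3, at 0.48 ± 0.44 (SD, n = 4, limma adjusted p = 0.182) and positive on each array. The cone gamma subunit GNGT2 stood at -2.99 ± 0.62 (SD, n = 4). Taste cell markers gave 2 of 8, the calcium release channel ITPR3, which other tissues also use, and GNG13, at 0.37 ± 0.51 (SD, n = 4, limma adjusted p = 0.295) and above the baseline on 3 arrays. The taste channel TRPM5 stood at -3.06 ± 0.28 (SD, n = 4).

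The label was checked in the same way. Kidney markers gave 2 of 13 detected (15.4%, beside 52.7% of all named genes), LRP2 and WT1, while the tubule genes UMOD, AQP2 and SLC12A1 were at -2.41, -3.22 and -3.23. Neuronal markers gave 7 of 11 (63.6%, beside 52.7% of all named genes), with 5 on 4 of 4 arrays and 6 by limma. NEFL stood at 4.01 ± 0.56 and SYP at 3.09 ± 0.89 log2 units (SD, n = 4 for each), while MAP2, GAP43, SNAP25 and STMN2 were at -0.34, -0.97, -1.40 and -3.12. Some of these genes divided the arrays another way. NEFM, a neurofilament subunit, had levels of 13.57, 8.32, 13.09 and 8.08 on replicates 1 to 4, high on 1 and 3 and low on 2 and 4. SYT1, a synaptic vesicle protein, had levels of 9.73, 13.41, 9.80 and 12.71, high on 2 and 4, the arrays on which the GNAO1 target NM_020988 was also higher. The summed level of the neuronal list was 15.45 to 16.08 log2 units over the arrays, higher on replicates 1 and 3 than on 2 and 4. Separately, that of the kidney list was 12.49 to 13.24, lower on replicates 1 and 3 than on 2 and 4. The part of the neuronal genes in the level of GNAZ or GNAO1 was not tested. All 20 reference genes were detected.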

How the data were processed

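RNA of 4 HEK293 cultures was measured on single-color NimbleGen arrays designed on the human HG18 gene catalogue. The authors deposited log2 probe values (71998 per array). Per the study's methods, intensities came from the maker's software and were then log2 transformed, and the submitters' processing notes name RMA, a normalization method, without a role. Sorted values of replicates 1 and 2 lay within 0.01 at 99.97% of ranks, those of 3 and 4 at 99.99%, and those of different pairs at 1.23% to 1.25%, as after quantile normalization in pairs. Raw intensities were not used, so background and saturation were not examined.

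Accessions were matched without versions to RefSeq genes of GRCh38.p14, used for names, gene order and promoter windows. Probe values were averaged on the linear scale within a target and returned to log2, and targets were averaged within a gene. Distances were tested against 0, one-sided, with limma 3.58 in R 4.3, adjusted by Benjamini-Hochberg over 17217 genes. The prior made all genes share a standard error of 0.351. This fit takes the 4 arrays as independent, and a fit with the array pair as a random block was added after the data were seen. Neither fit included the other division of the arrays, described above for some neuronal markers, so the p-values do not allow for it. The sources say that replicates were separate cultures. The smallest p of an exact sign-flip test with 4 arrays is 0.0625. Of 11 seminal controls 10 were matched, and MSMB, SPATA3, SPATA4, AFG2A (SPATA5), SPATA13, SPATS1, SPESP1, CBY2 (SPERT), ODF1 and SPAM1 set the baseline.

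The members and gene lists were chosen with earlier results of these data known. Named genes were the members, the controls, their neighbors in gene order, the photoreceptor and taste partners, and up to 3 genes of each partner list with the largest distance among those above the baseline on 4 arrays. Marker genes are also named. Some genes that this rule would name are not reported here.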

Additional observations from a re-analysis of the deposited data

Results flagged for a closer look

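Replicate 1 stood apart in the distance of GNAI2, at 4.56 log2 units, where the other arrays gave 3.40 to 3.60. The gap was 0.830 of the range, just past Dixon's critical value for 4 samples. Of 50 sets of 4 values examined this was the only one, and chance marks about 1 in 20. In the log2 level of GNAI2 replicate 1 did not stand apart, at 14.03 with 14.09 on replicate 3, and the largest gap was 0.550 of the range, at replicate 2. The baseline was lowest on replicate 1, and its part in the separation was not tested.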

How the results depend on the processing

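All alternatives but the array pair block were fixed with earlier results of these data known. GNAI2 passed the limma test under 21 of 21 alternatives, GNAI3 and GNAZ under 20 each. The mean distance of GNAT1 stayed below the baseline under all 21. Without SPATA5 and SPATA13 it was -0.075, with 2 of 4 arrays above the baseline. With olfactory receptor controls it was -0.32, with 1 of 4 arrays above. The 3 detected members became 6 with olfactory receptor controls, where 71.4% of all named genes were above the baseline, and 6 without SPATA5 and SPATA13, where 74.0% were. With a baseline of 3 SD, where 39.1% of all named genes were above it, 3 members stayed above it and limma called 1. There GNAI3 was at 0.14 and GNAZ at 0.73. For members 167 alternative values kept their direction and side of the threshold or, as counts, stayed within 1.5 times. Of the rest 15 changed sign, 2 lost the threshold and 3 counts moved past 1.5 times. For other genes and lists 867 values stayed the same in this sense, while 15 moved, 12 passed the threshold, 8 lost it and 25 changed sign.

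GNAI1 changed sign most often, to 1.29 with 1 SD, 2.30 without SPATA5 and SPATA13, 2.06 with olfactory controls, 1.68 with the median and scaled median absolute deviation, 0.22 with mean and 0.064 with median log2 probe values, 0.23 without the highest probe, 0.72 on replicates 1 and 2 and 0.15 on replicates 2 and 4. With single replicates left out it ran from -0.30 (without replicate 1) to 0.36 (without replicate 3), and was 0.08 without replicate 4. The limma adjusted p of GNAI1 ran from 4.65e-10 to 1.0.

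Without SPATA5 and SPATA13 these also turned positive: GNAO1 0.50, GNAT2 0.42, MAGI2 1.98, SLC38A3 1.87, SEMA3B 1.78, RSPH14 0.29 and SEMA3F 0.38. With olfactory controls GNAO1 was 0.25, GNAT2 0.18, MAGI2 1.74, SLC38A3 1.62, SEMA3B 1.54, RSPH14 0.042 and SEMA3F 0.14. With 1 SD MAGI2 was 0.97, SLC38A3 0.86 and SEMA3B 0.77, and with the median and scaled median absolute deviation 1.36, 1.24 and 1.16. MAGI2 was 0.12 on replicates 1 and 2. With 3 SD RGS10 was -0.011, GNB3 to -0.84, GNG13 to -0.95 and RAB36 to -1.03. With mean log2 probe values GNG13 was -0.46 and RAB36 -0.22, and RAB36 was -0.84 with the probe median and -0.86 without the highest probe. The height of the baseline follows from the choice of controls. Other causes were not tested. No paired analysis was possible because the design holds 1 group, with no second group to pair by replicate number. With the array pair (replicates 1 and 2, replicates 3 and 4) as a random block, chosen after seeing the data, the correlation within pairs was 0.339, the median standard error 0.431 and the genes called 44.3%. The same 3 members passed, and limma's adjusted p was 0.000933 for GNAI3, 3.49e-06 for GNAZ and 1.3e-17 for GNAI2.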
